A study of Mus musculus with 9 samples.

Results

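The subject is a block of 39 genes from the distal end of mouse chromosome 16, listed from App to Bace2, whose mRNA levels stood out in particular lymphomas. The members were chosen by measured values, their deviations in 2 lymphomas: a rise of the distal genes in the lymphoma labelled Eμ-Myc replicate 1 and a smaller rise along the whole chromosome in Eμ-Myc replicate 4. Where several probe sets read a gene, the brightest on average was used, and all 39 were among the 18193 genes with a probe set. Of the 39, 37 passed a filter on low values and are among the 10172 genes tested. The remaining pair, Sh3bgr and Bace2, lay at background in most or all arrays and is described apart.

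Each of 9 mouse lymphomas was hybridised to 1 Affymetrix array. Of the tumours, 5 came from mice with both the Eμ-Myc and the Eµ-TTP-1 transgene, called double-transgenic here, and 4 from mice with Eμ-Myc alone. Both groups therefore carry Eμ-Myc, an oncogene placed under an immunoglobulin enhancer that is active in the B lineage, and all had a strain background of 94% C57BL/6. TTP, or tristetraprolin, is an mRNA-binding protein that promotes the decay of AU-rich mRNAs. The labels call the samples biological replicates and do not state age, sex or the number of animals per sample, so p-values measure the spread between these samples. RNA came from homogenised aliquots of whole lymphomas.

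The values are intensities after background correction and normalisation by the submitters, with array medians of 12.2 to 13.4. Of 7 B cell markers, 6 were named on the array, and all 6 exceeded an intensity of 16 in each lymphoma, with a summed intensity of 55914.5 to 69849.7 in double-transgenic and 48077 to 67746.3 in Eμ-Myc arrays. In bulk tissue, fewer cells of a type and less RNA per cell cannot be told apart. DNA copy number was not analysed here, and every value below is one of mRNA.

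Distal mouse chromosome 16 carries many of the genes that lie, in people, on the chromosome present in an extra copy in Down syndrome. It holds a cluster of cytokine receptor genes (Ifnar1, Ifnar2, Ifngr2, Il10rb), blood transcription factors (Runx1, Erg, Ets2), chromatin proteins (Hmgn1, Brwd1, Chaf1b), the kinase gene Dyrk1a, and housekeeping genes for metabolism, translation and protein folding. RUNX1 and ERG are required for blood stem cells, and both are altered in human leukaemias. What the genes of such a block share is their place on the chromosome rather than a pathway, so their levels can be set beside those of partners that act in the same complex but are encoded elsewhere.

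The deviation of a gene in a lymphoma is its log2 value minus its median over the 9 arrays, and a deviation of 0.5, or 1.41-fold, was used as a mark. The 37 tested members had a median deviation of 2.01, or 4.02-fold, in Eμ-Myc replicate 1 and of 0.36, or 1.28-fold, in Eμ-Myc replicate 4. In the other 7 lymphomas the median lay between -0.13 and 0. Deviations of 0.5 or more were found for 31 of 37 members in Eμ-Myc replicate 1, where 12.5% of all tested genes had one, and for 16 of 37 in replicate 4, again beside 12.5% of all genes. After centring each array on its median that count in replicate 4 was 10. Deviations of -0.5 or less were found for App alone among the members in Eμ-Myc replicate 1 (19.5% of all genes) and for Rcan1 alone in replicate 4 (8.95% of all genes). The list was drawn up on these values, so the counts describe it and carry no test. Eμ-Myc replicate 1 held the highest of the 9 values for 30 members, beside 13% of all tested genes, and Eμ-Myc replicate 4 for Cbr3 alone, beside 10.1%. Nearest to the mark in Eμ-Myc replicate 1 were Cct8 (0.78) above it and Hmgn1 (0.47) below it. Over all 10172 genes, the median deviation was -0.01 in Eμ-Myc replicate 1 and 0 in replicate 4.

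**Figure D1:**
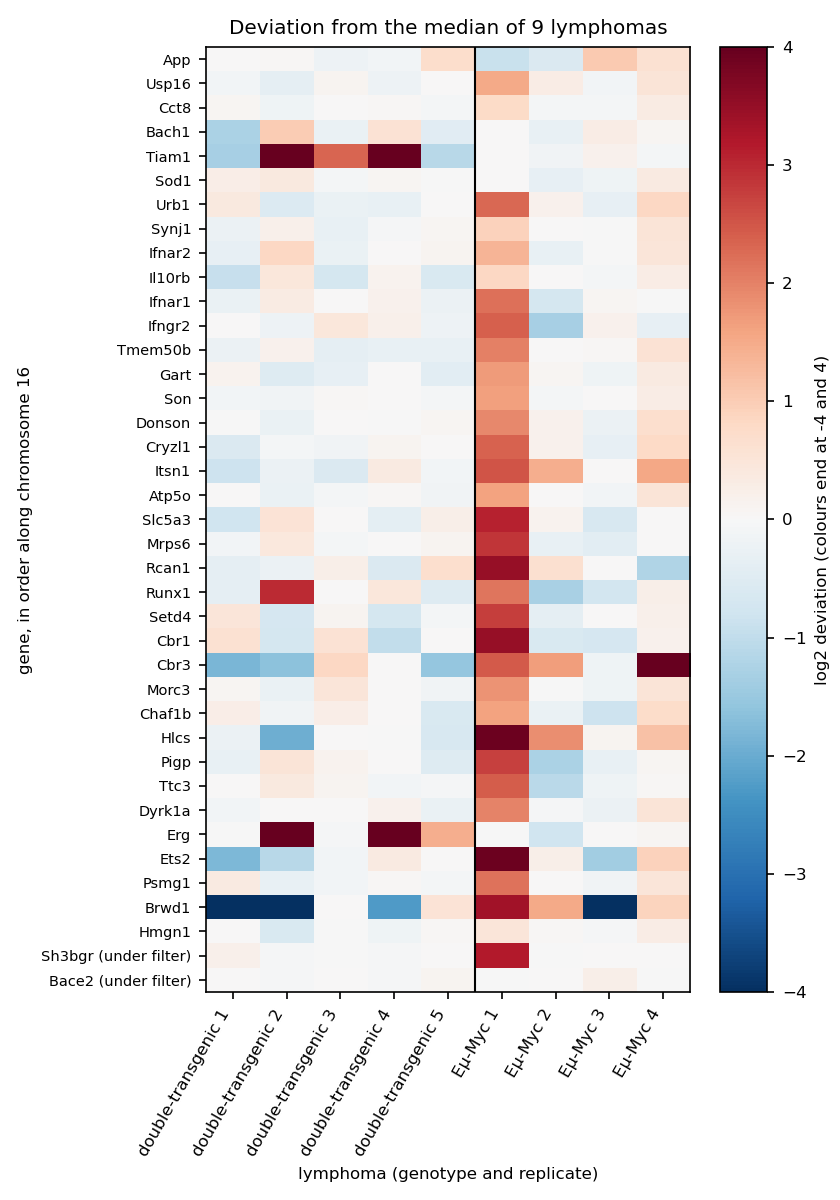
Log2 deviation of each of the 39 listed genes (rows, in order along chromosome 16) from its median over 9 lymphomas (columns, double-transgenic left of the line and Eμ-Myc right of it). The column of Eμ-Myc replicate 1 is red from Urb1 to Brwd1 apart from Erg. App, Bach1, Tiam1 and Sod1 are not raised there by the probe sets used.

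**Figure D2:**
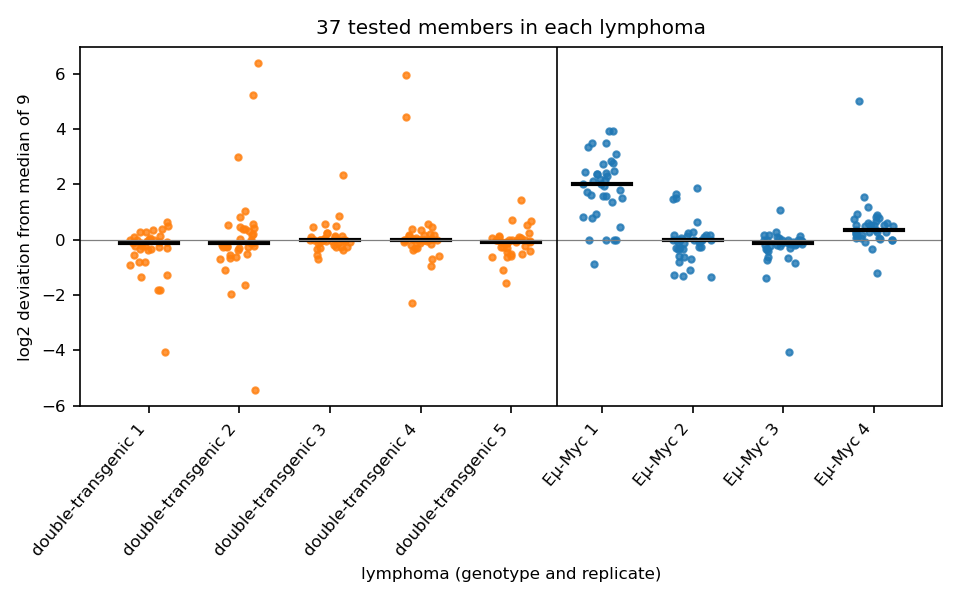
Log2 deviation of the 37 tested members (points) in each lymphoma, with the median of the members as a black bar. The bar stands at 2.01 in Eμ-Myc replicate 1 and at 0.36 in Eμ-Myc replicate 4, and between -0.13 and 0 in the other 7 lymphomas.

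The 7 marker lists covered B cells, T cells, granulocytes, macrophages, megakaryocytes, erythroid cells, and stroma with endothelium. In Eμ-Myc replicate 1, the summed intensity of each list lay within the range of the 7 lymphomas other than replicates 1 and 4. For granulocytes Eμ-Myc replicate 1 had a sum of 777.2 and those lymphomas spanned 183.2 to 20696.8. For stroma and endothelium it had 20363.5, and they spanned 4629.99 to 54132.5. All 4 named erythroid markers stayed under an intensity of 16 in each array. Of 5 named megakaryocyte markers, 1 exceeded 16 in Eμ-Myc replicate 1, and Ppbp, Itga2b and Gp1bb lay at background in all arrays. Eμ-Myc replicate 4 did leave the range, with 61478.4 for stroma and endothelium, 408.1 for T cells against 45.3 to 265.5, and 48077 for B cells against 49721.5 to 69849.7. The part of these cells in the values of replicates 1 and 4 was not tested.

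In gene order along chromosome 16, the rise in Eμ-Myc replicate 1 lay at the far end. Running medians over 11 neighbouring tested genes reached 0.5 or more in 55 of 332 windows of this chromosome, in 1 unbroken run whose first window centred on App and whose last was centred on Get1, within reach of the end of the gene order. Just before App, the mitochondrial ribosomal gene Mrpl39 deviated by 0.70, the ATP synthase gene Atp5j by 0.73 and the ETS factor gene Gabpa by 0.78. App itself (-0.88) and the next 3 tested genes, Cyyr1 (-1.12), Adamts1 (-1.09) and Adamts5 (-0.62), were low in that lymphoma. At the far end, Prdm15 (2.13) and C2cd2 (1.36) were high and Pcp4 (-0.55) was low.

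Fitting 3 levels to the chromosome in this array, a step taken after its values had been seen, put 286 genes from Mefv to Adamts5 at a median of -3.48e-03. The next 18 genes, from N6amt1 to A930006K02Rik, had a median of 0.93 (1.91-fold), and the last 38, from Ifnar1 to B230307C23Rik, one of 2.21 (4.61-fold). The middle level held 9 members with deviations from 0 to 2.31, and the distal level 27 members with deviations from -0.01 to 3.93, of which 25 reached 0.5. Of genes that the list leaves out, 8 of 9 in the middle level and 10 of 11 in the distal level reached 0.5. Their medians were 1.00 and 2.16, and 12.5% of all tested genes reached 0.5 in this array. The levels were fitted to these genes too, so the counts describe the fit and carry no test. Windows with a median of 0.5 or more made up 1.28% of 9940 windows over the genome in Eμ-Myc replicate 1. Of these 127 windows, 55 lay on chromosome 16 and the rest on chromosomes 3, 4, 9, 10, 11, 15 and 17. The highest of all, at 2.5, centred on Mrps6.

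Eμ-Myc replicate 4 was raised along the whole chromosome. The same 3 stretches had median deviations of 0.52, 0.36 and 0.42 in that lymphoma, and 167 of the 332 windows on the chromosome reached 0.5, with window medians from 0.22 to 0.97. Over the genome 1.95% of windows did so in this array. The highest window of Eμ-Myc replicate 4 lay on chromosome 6 (1.3), not on 16. In none of the other 7 lymphomas did a chromosome 16 window reach 0.5.

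**Figure D3:**
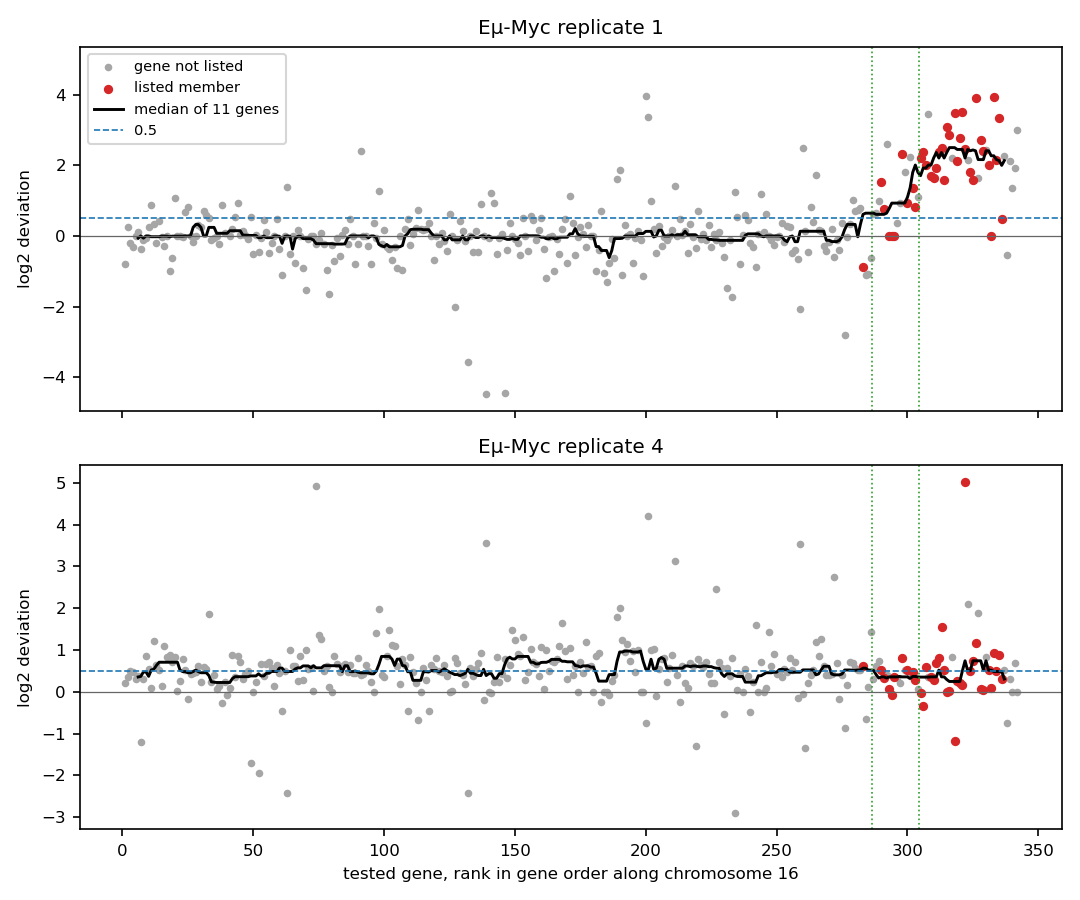
Log2 deviation of 342 tested chromosome 16 genes in gene order (x axis) in Eμ-Myc replicate 1 (top) and Eμ-Myc replicate 4 (bottom), with members in red, the running median of 11 genes in black, the 0.5 mark dashed and the borders of the 3 fitted levels dotted. The running median of the upper panel climbs at the right end to 2.5, and that of the lower panel stays between 0.22 and 0.97 along the whole chromosome.

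The cytokine receptor genes were all highest in Eμ-Myc replicate 1. Ifnar1 and Ifnar2 encode the chains of the receptor for type I interferons, Ifngr2 a chain of the interferon gamma receptor, and Il10rb a chain shared by receptors of the interleukin-10 family. Ifnar1 read, on the log2 scale, 7.85, 8.43, 8.11, 8.28 and 7.87 in double-transgenic replicates 1 to 5, against 10.32, 7.41, 8.20 and 8.09 in Eμ-Myc replicates 1 to 4. Ifngr2 read 8.94, 8.73, 9.38, 9.14 and 8.73 in double-transgenic replicates 1 to 5, against 11.32, 7.60, 9.12 and 8.60 in Eμ-Myc replicates 1 to 4. The value of Eμ-Myc replicate 1 lay above the other 8 lymphomas for both, 4.62-fold over the median for Ifnar1 and 5.19-fold for Ifngr2. Ifnar2 deviated by 1.36 and Il10rb by 0.83 there. With the probe sets used, the receptor cluster thus straddled the border of the middle and distal levels. Further probe sets over the filter deviated more, by 1.65 and 1.63 for Ifnar2 and by 1.88 for Il10rb. These receptor genes varied in Eμ-Myc replicate 4, with 0.48 for Ifnar2, 0.29 for Il10rb, -0.03 for Ifnar1 and -0.34 for Ifngr2.

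The Ifnar1 promoter is shown because it holds more matches than any other member's window to CCGGAAG, a core bound by ETS factors, with 2 when both strands are read. The window runs from 250 bases before to 50 after the start of the gene, at chr16:91484965-91485264 on the plus strand (RefSeq, GRCm38.p6). Every CG is in capitals, 26 in all.
Ifnar1: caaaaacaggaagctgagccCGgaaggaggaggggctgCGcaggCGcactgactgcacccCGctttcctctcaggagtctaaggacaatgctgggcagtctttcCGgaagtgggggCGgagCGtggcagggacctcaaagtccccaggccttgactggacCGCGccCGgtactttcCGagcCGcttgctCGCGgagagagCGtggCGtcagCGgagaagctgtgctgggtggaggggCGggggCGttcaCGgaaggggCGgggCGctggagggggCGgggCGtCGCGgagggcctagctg

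Interferon-stimulated genes, whose transcription is switched on by these receptors, did not follow the receptor genes. In the lymphoma with the highest Ifnar1 and Ifngr2, 0 of 14 tested interferon-stimulated genes on other chromosomes deviated by 0.5 or more and 9 deviated by -0.5 or less, with a median of -1.27 and values from -2.86 (Oas2) to 0 (Ddx58). Over all genes, 12.5% deviated by 0.5 or more and 19.5% by -0.5 or less in this array. In Eμ-Myc replicate 4, all 14 deviated by 0.5 or more, from 0.52 (Oas1a) to 4.00 (Ifit3), with a median of 1.70, beside 12.5% of all genes at 0.5 or more. Mx1, an interferon-stimulated gene beyond Bace2 on chromosome 16 itself that the C57BL/6J reference lists as a transcribed pseudogene, read 2.34 in Eμ-Myc replicate 1 and 8.07 in replicate 4, and the other 7 lymphomas spanned 2.43 to 5.71. Signalling partners of the receptors lay nearer to their medians in Eμ-Myc replicate 1. The 8 tested genes encode receptor chains, JAK kinases, STAT factors and the factor Irf9. Their median was -0.15 in Eμ-Myc replicate 1, from -0.49 (Stat3) to 0.20 (Stat2). In replicate 4 their median was 0.03, from -2.34 (Il10ra) to 0.68 (Irf9).

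Among the transcription factors, Ets2 had the largest deviation of all members in Eμ-Myc replicate 1. This ETS factor of the Ras and MAP kinase pathway read 7.37, 8.07, 9.07, 9.53 and 9.17 in double-transgenic replicates 1 to 5, against 13.10, 9.40, 7.77 and 10.11 in Eμ-Myc replicates 1 to 4. Its deviation of 3.93 corresponded to 15.2-fold, and the next highest lymphoma was Eμ-Myc replicate 4. Ets2 also varied over the 7 remaining lymphomas, with an SD of 0.87 on the log2 scale.

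Runx1, which encodes the DNA-binding chain of core binding factor, read 9.45, 12.80, 9.81, 10.28 and 9.30 in double-transgenic replicates 1 to 5, against 11.94, 8.51, 9.07 and 10.06 in Eμ-Myc replicates 1 to 4. It was high in Eμ-Myc replicate 1 (deviation 2.13), but double-transgenic replicate 2 was higher still, with a deviation of 2.99. All 4 Runx1 probe sets over the filter were raised in Eμ-Myc replicate 1, by 1.91 to 2.29. A probe set under the filter deviated by 3.79 there and another, at background, by 0.02. The median member stood at -0.13 in double-transgenic replicate 2.

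Runx1 is transcribed from a pair of promoters far apart, and both are shown because they differ in make-up. Positions are from RefSeq on GRCm38.p6, on the minus strand, with CG in capitals. The upstream window, chr16:92826025-92826324, holds 2 CG and 2 matches to TGTGGT, the core bound by RUNX proteins, counted on either strand. The downstream window, chr16:92697280-92697579, holds 35 CG and 0 matches to TGTGGT. Which promoter was in use was not measured.
Runx1 upstream: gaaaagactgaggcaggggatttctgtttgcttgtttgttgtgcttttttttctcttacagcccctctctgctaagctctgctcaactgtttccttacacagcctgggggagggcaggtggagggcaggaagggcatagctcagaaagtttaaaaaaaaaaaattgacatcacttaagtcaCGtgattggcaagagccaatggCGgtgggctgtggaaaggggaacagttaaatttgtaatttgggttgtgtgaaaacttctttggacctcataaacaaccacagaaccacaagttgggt
Runx1 downstream: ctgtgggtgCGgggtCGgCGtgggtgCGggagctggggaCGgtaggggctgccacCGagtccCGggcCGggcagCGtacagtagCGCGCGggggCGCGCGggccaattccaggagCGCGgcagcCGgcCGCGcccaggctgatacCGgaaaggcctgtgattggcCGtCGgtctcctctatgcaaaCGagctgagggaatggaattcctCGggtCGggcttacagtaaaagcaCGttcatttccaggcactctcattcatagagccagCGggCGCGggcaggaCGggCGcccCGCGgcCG

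Erg was not raised in Eμ-Myc replicate 1, although it lies between Dyrk1a and Ets2. This ETS factor of stem cells and vessels read 4.70, 11.08, 4.66, 10.66 and 6.16 in double-transgenic replicates 1 to 5, against 4.70, 3.90, 4.71 and 4.79 in Eμ-Myc replicates 1 to 4. Both double-transgenic replicates 2 and 4 stood above 10, and in Eμ-Myc replicate 1 Erg stayed at 4.70, near the intensity of 16 that marks background. Tiam1, which activates the small GTPase Rac, had a similar pattern, with 9.62 and 8.80 in double-transgenic replicates 2 and 4, 6.70 in replicate 3, and 3.03 to 4.55 in the other 6 lymphomas. Bach1, a repressor of haem and antioxidant genes, deviated by 0 in Eμ-Myc replicate 1 and was highest in double-transgenic replicate 2 (11.86). The other Bach1 probe set, also over the filter, deviated by 0.57 in Eμ-Myc replicate 1.

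Of 8 tested RUNX and ETS relatives and cofactors encoded elsewhere, 1 deviated by 0.5 or more in Eμ-Myc replicate 1, Ets1 at 0.54, and Runx3 was lowest at -0.55. Cbfb, the obligate partner of Runx1, deviated by -0.38. Replicate 4 had values from -0.47 (Spi1) to 0.62 (Elk1) for these genes.

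The chromatin genes of the block differed in the size of their deviations. Brwd1, a bromodomain protein that acts in immunoglobulin light chain rearrangement, read 4.86, 3.47, 8.91, 6.63 and 9.45 in double-transgenic replicates 1 to 5, against 12.26, 10.43, 4.85 and 9.80 in Eμ-Myc replicates 1 to 4. Eμ-Myc replicate 1 was the highest lymphoma, with a deviation of 3.35, but the rest differed widely within both groups. Chaf1b, a subunit of the factor that deposits histones on replicated DNA, deviated by 1.60 in Eμ-Myc replicate 1 and 0.74 in replicate 4. The nuclear ATPase gene Morc3 deviated by 1.80 and 0.50, and Setd4, a SET-domain methyltransferase gene, by 2.76 and 0.20.

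Hmgn1, which encodes an abundant nucleosome-binding protein, read 15.32, 14.71, 15.30, 15.16 and 15.38 in double-transgenic replicates 1 to 5, against 15.80, 15.37, 15.27 and 15.62 in Eμ-Myc replicates 1 to 4. It was highest in Eμ-Myc replicate 1, yet by 0.47 only. The probe set belongs to the _x_at type, which may also bind transcripts of similar sequence. The other 2 Hmgn1 probe sets over the filter deviated by 1.00, for one that is also of the _x_at type, and by 0.74. Of 3 tested genes for HMG chromatin proteins elsewhere (Hmgn3, Hmgn5 and Hmgb2), Hmgn3 was highest in Eμ-Myc replicate 1 (1.59) and Hmgn5 lowest (-0.63).

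Dyrk1a, Rcan1 and Itsn1, in the distal level, and Synj1, in the middle level, were each highest in Eμ-Myc replicate 1. Dyrk1a, a kinase that phosphorylates NFAT factors, read 10.92, 11.03, 11.05, 11.19 and 10.75 in double-transgenic replicates 1 to 5, against 13.03, 10.98, 10.81 and 11.54 in Eμ-Myc replicates 1 to 4. Its 7 values outside Eμ-Myc replicates 1 and 4 lay within 10.75 to 11.19, so that the excess of 3.99-fold in replicate 1 and 1.43-fold in replicate 4 stood clear of them. Rcan1, an inhibitor of calcineurin, read 7.53, 7.63, 8.12, 7.30 and 8.54 in double-transgenic replicates 1 to 5, against 11.36, 8.52, 7.88 and 6.69 in Eμ-Myc replicates 1 to 4. It was highest in Eμ-Myc replicate 1 (11.2-fold over the median) and lowest in Eμ-Myc replicate 4 (0.438-fold). The endocytic scaffold gene Itsn1 deviated by 2.50 and 1.55 in these lymphomas, and Synj1, a phosphatase of membrane lipids, by 0.93 and 0.51. Among 7 tested calcineurin and NFAT genes elsewhere, Ppp3ca (0.90) was highest and Nfatc2 (-2.16) lowest in Eμ-Myc replicate 1, while in replicate 4 values ran from -0.36 (Nfatc1) to 0.16 (Ppp3r1).

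Gart, Atp5o and Cryzl1, in the distal level, were also highest in Eμ-Myc replicate 1. Gart, a multifunctional enzyme of purine synthesis, read 12.22, 11.57, 11.74, 12.08 and 11.66 in double-transgenic replicates 1 to 5, against 13.79, 12.16, 11.90 and 12.43 in Eμ-Myc replicates 1 to 4. Atp5o, a subunit of the mitochondrial ATP synthase, read 12.94, 12.66, 12.87, 12.97 and 12.81 in double-transgenic replicates 1 to 5, against 14.53, 12.94, 12.83 and 13.45 in Eμ-Myc replicates 1 to 4. Both were highest in Eμ-Myc replicate 1 and next highest in replicate 4, with deviations of 1.71 and 0.36 for Gart and of 1.60 and 0.52 for Atp5o. Sod1, the cytosolic superoxide dismutase, lies in the middle level and deviated by 0 in Eμ-Myc replicate 1 and 0.36 in replicate 4. Cryzl1, related to quinone oxidoreductases, deviated by 2.36 and 0.80.

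The carbonyl reductase genes Cbr1 and Cbr3, neighbours in the gene order, differed from each other. Cbr1 read 9.49, 8.18, 9.45, 7.89 and 8.86 in double-transgenic replicates 1 to 5, against 12.36, 8.24, 8.19 and 9.03 in Eμ-Myc replicates 1 to 4. Cbr3 read 5.71, 5.89, 8.37, 7.53 and 5.98 in double-transgenic replicates 1 to 5, against 9.98, 9.19, 7.34 and 12.55 in Eμ-Myc replicates 1 to 4. Eμ-Myc replicate 1 was the highest lymphoma for Cbr1 (11.3-fold over the median), whereas Cbr3 peaked in Eμ-Myc replicate 4 at 32.6-fold over its median. Hlcs, which attaches biotin to carboxylases, also differed widely, from 4.59 in double-transgenic replicate 2 to 10.45 in Eμ-Myc replicate 1.

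Genes for RNA processing, translation and protein turnover completed the block. Son, a splicing protein of nuclear speckles, read 13.87, 13.86, 14.04, 13.99 and 13.89 in double-transgenic replicates 1 to 5, against 15.62, 13.89, 13.99 and 14.28 in Eμ-Myc replicates 1 to 4. The 7 lymphomas other than Eμ-Myc replicates 1 and 4 spanned 13.86 to 14.04, and both of those lay above them. Psmg1, a chaperone of proteasome assembly, deviated by 2.16 in Eμ-Myc replicate 1 and 0.49 in replicate 4. The replication fork gene Donson deviated by 1.92 and 0.68, and the membrane protein gene Tmem50b by 2.01 and 0.59. Urb1, a nucleolar protein of ribosome assembly, deviated by 2.31 and 0.81, the deubiquitinase Usp16 by 1.52 and 0.52, and the chaperonin subunit Cct8 by 0.78 and 0.33.

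App and Bace2, the first and last of the list, were not raised in Eμ-Myc replicate 1, whereas Sh3bgr was. Sh3bgr comes next to Bace2 in the list, but other genes, Dscam among them, lie between them on the chromosome. App, which encodes the amyloid precursor protein, was lowest of the 9 in Eμ-Myc replicate 1 (10.38) and highest in Eμ-Myc replicate 3 (12.33). Sh3bgr read 5.35 in Eμ-Myc replicate 1, and the remaining 8 lymphomas spanned 2.14 to 2.38. Bace2, a protease related to the one that cleaves the amyloid precursor, lay between 2.91 and 3.21 in each array. Of 25 genes under the filter in the distal stretch, 20 lay within 0.1 of their median in Eμ-Myc replicate 1 and 3 deviated by 0.5 or more.

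Some members start at nearly the same place. Slc5a3, a myo-inositol transporter, and Mrps6, a protein of the mitochondrial ribosome, start on the same strand, and 286 of the 300 bases of their promoter windows are the same. Slc5a3 read 7.76, 9.13, 8.57, 8.18 and 8.80 in double-transgenic replicates 1 to 5, against 11.66, 8.71, 7.94 and 8.57 in Eμ-Myc replicates 1 to 4. Mrps6 read 10.54, 11.06, 10.55, 10.64 and 10.74 in double-transgenic replicates 1 to 5, against 13.50, 10.34, 10.23 and 10.66 in Eμ-Myc replicates 1 to 4. Both peaked in Eμ-Myc replicate 1, at 8.51-fold and 7.25-fold over the median, and both stayed at the median in Eμ-Myc replicate 4 (0 and 0.02), unlike most members. Since their windows share these bases, the windows are not independent in counts over promoters. Whether the shared bases bear on the levels of the pair was not tested.

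Pigp, of the first step of GPI anchor synthesis, and Ttc3, a ubiquitin ligase, start on opposite strands, and a Pigp window overlaps the Ttc3 window by 288 bases. Pigp read 10.33, 11.15, 10.78, 10.64 and 10.13 in double-transgenic replicates 1 to 5, against 13.37, 9.37, 10.33 and 10.71 in Eμ-Myc replicates 1 to 4. Ttc3 read 11.34, 11.72, 11.46, 11.23 and 11.30 in double-transgenic replicates 1 to 5, against 13.75, 10.25, 11.17 and 11.40 in Eμ-Myc replicates 1 to 4. Beside the shared peak in Eμ-Myc replicate 1 (deviations of 2.73 and 2.41), both were lowest in Eμ-Myc replicate 2 (-1.27 and -1.09) and near the median in replicate 4 (0.07 and 0.05). Both windows, shown because a second member starts within them, are on GRCm38.p6 from RefSeq, plus strand, chr16:92058086-92058385 for Mrps6 and chr16:94370489-94370788 for Ttc3, with CG in capitals, 39 and 34 in number.
Mrps6: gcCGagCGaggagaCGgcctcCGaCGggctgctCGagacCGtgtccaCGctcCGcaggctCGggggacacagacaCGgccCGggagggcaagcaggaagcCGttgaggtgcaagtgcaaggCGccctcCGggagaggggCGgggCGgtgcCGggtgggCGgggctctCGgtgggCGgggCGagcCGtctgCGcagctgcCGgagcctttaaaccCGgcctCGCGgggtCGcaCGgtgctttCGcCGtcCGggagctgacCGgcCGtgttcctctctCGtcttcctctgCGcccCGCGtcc
Ttc3: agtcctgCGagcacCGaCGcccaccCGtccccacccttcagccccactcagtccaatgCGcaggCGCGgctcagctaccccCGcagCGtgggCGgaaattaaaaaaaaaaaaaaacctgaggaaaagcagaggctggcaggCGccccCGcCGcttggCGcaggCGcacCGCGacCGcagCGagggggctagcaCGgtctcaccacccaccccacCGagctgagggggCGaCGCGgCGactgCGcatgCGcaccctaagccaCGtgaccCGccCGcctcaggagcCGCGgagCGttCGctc

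Promoter windows were available for 36 of the 39 members. The median member had 30 CG in its richest window, where the median of all 27025 genes with a window, noncoding genes included, was 8. CCGGAAG occurred on either strand in windows of 10 of 36 members (27.8%) and of 9.93% of all genes, and TGTGGT in 4 of 36 (11.1%) and in 18.9% of all genes. These are matches of letters, not measured binding. The shares of all genes include noncoding genes and genes under the filter, and shares over the tested genes alone were not computed.

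Most partners of the members that are encoded on other chromosomes were not raised with them in Eμ-Myc replicate 1. Over 14 lists, 118 partner genes were tested, of which 4 deviated by 0.5 or more there (3.39%, beside 12.5% of all genes), with a median of -0.07. Those 4 were Ets1, Ppp3ca, Ccs and Hmgn3. Cct8 deviated by 0.78, and the 7 other CCT chaperonin genes lay between -0.18 (Cct7) and 0.31 (Cct3). Atp5o deviated by 1.60, and 13 other ATP synthase genes lay between -0.27 (Atp5h) and 0.13 (Atp5j2). Mrps6 deviated by 2.86, and 26 other genes of the mitochondrial small ribosomal subunit had a median of 0, from -0.89 (Mrps18a) to 0.26 (Mrps21).

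Smaller sets were read in the same way. Gart stood at 1.71 and the other purine synthesis genes between -1.46 (Impdh1) and 0.49 (Gmps). Psmg1 stood at 2.16 and the other proteasome assembly chaperones between 0 (Psmg4) and 0.17 (Psmg3). Pigp stood at 2.73 and the other GPI anchor genes between -0.66 (Piga) and 0.27 (Pigc). Chaf1b stood at 1.60 and the other histone deposition genes between -1.31 (Asf1b) and 0.13 (Asf1a). Sod1 and Bach1 were each at 0 by the probe sets used, and a further Bach1 probe set deviated by 0.57. The antioxidant genes beside Sod1 ran from -0.66 (Gpx1) to 0.86 (Ccs), and the 3 tested genes repressed by Bach1 from -9.65e-04 (Fth1) to 0 (Hmox1). In Eμ-Myc replicate 4, 21 of the 118 partners deviated by 0.5 or more (17.8%, beside 12.5% of all genes), 14 of them interferon-stimulated genes, and the median was 0.05.

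**Figure D4:**
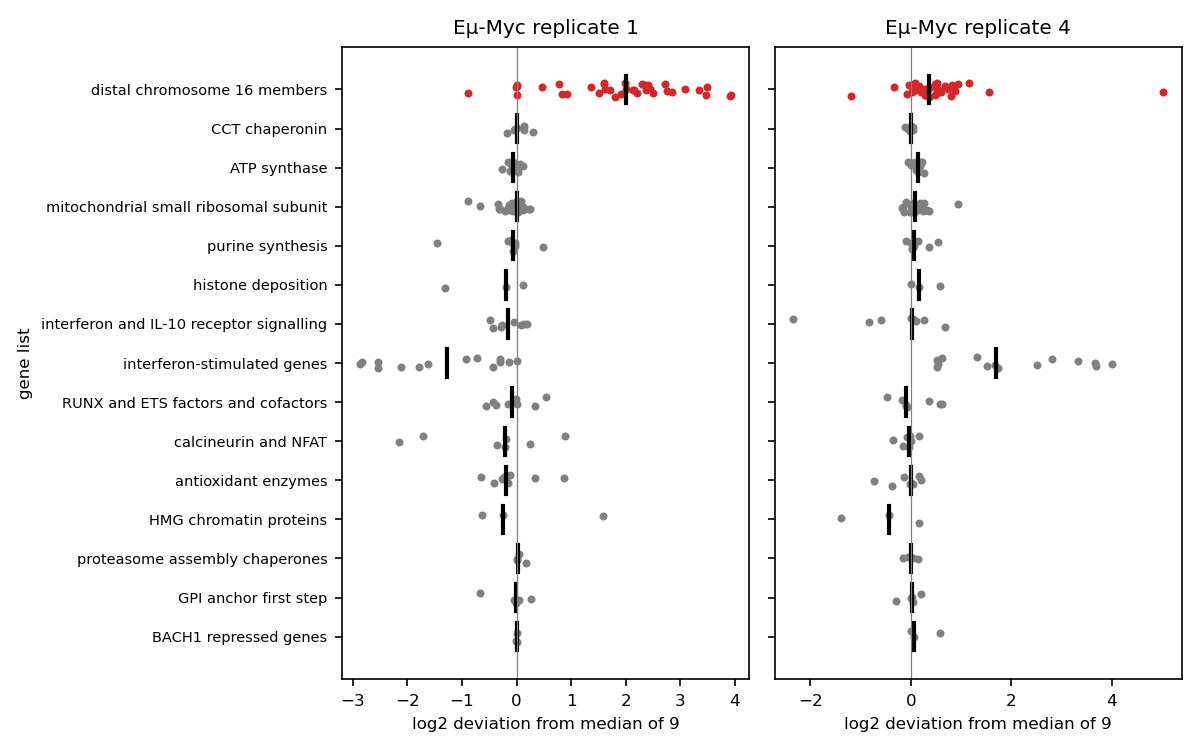
Log2 deviation from the median of 9 lymphomas (x axis) of the 37 tested members (red, top) and of partner genes on other chromosomes by list (grey), in Eμ-Myc replicate 1 (left) and replicate 4 (right), with medians as black bars. The members' bar stands at 2.01 on the left, those of the partner lists lie between -1.27 and 0.02 there, and the interferon-stimulated genes reach 1.70 on the right.

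The other probe sets of the members gave a second reading of the same RNA. The filter passed 50 further probe sets, from 22 genes. In Eμ-Myc replicate 1, 45 of the 50 deviated by 0.5 or more, with a median of 2.37. In replicate 4, 20 did so, with a median of 0.40. Of all tested genes, 12.5% did so in either array. The further probe sets read genes chosen on these values, so the counts carry no test. All 6 further Son probe sets deviated by 2.19 to 2.60 in Eμ-Myc replicate 1, and the Son probe set used by 1.63. The 5 further Ttc3 probe sets over the filter deviated by 2.80 to 3.86, and the one used by 2.41. Within the distal level, the 14 members with the higher median log2 values had a median deviation of 1.96 in Eμ-Myc replicate 1 and the 13 with the lower values one of 2.76.

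Between the genotypes, no member passed the test. With all 9 lymphomas, the median log2 difference of the 37 members, double-transgenic minus Eμ-Myc, was -0.59, beside 0.05 over all genes. Of the members, 32 were lower and 5 higher. By limma, 0 of 37 had a Benjamini-Hochberg adjusted p under 0.05, the lowest being 0.845, beside 0% of 10172 genes. At an unadjusted p under 0.05, 3 members were lower, Itsn1, Cbr3 and Hlcs, and 0 higher, where 1.8% of all genes were lower and 3.87% higher. Itsn1 read 7.45, 8.05, 7.70, 8.64 and 8.15 in double-transgenic replicates 1 to 5, against 10.77, 9.73, 8.27 and 9.82 in Eμ-Myc replicates 1 to 4. Its groups overlapped, Eμ-Myc replicate 3 lying below double-transgenic replicate 4. Itsn1 averaged 8.0 ± 0.45 in double-transgenic lymphomas (SD, n = 5) and 9.65 ± 1.03 in Eμ-Myc lymphomas (SD, n = 4), a difference of -1.65 (limma SE 0.46, adjusted p = 0.845). Hlcs read 6.31, 4.59, 6.54, 6.53 and 5.91 in double-transgenic replicates 1 to 5, against 10.45, 8.40, 6.66 and 7.71 in Eμ-Myc replicates 1 to 4. Every Eμ-Myc lymphoma lay above every double-transgenic one for Hlcs. Cbr3 differed by -3.07 (SE 1.01) and Hlcs by -2.33 (SE 0.74). The lymphomas that chose the list belong to the Eμ-Myc group, so these differences hold the values the list was drawn up on.

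Without those 2 lymphomas, the 5 double-transgenic tumours were set against Eμ-Myc replicates 2 and 3. The median difference of the members was then 2.78e-03, with 19 higher and 18 lower, beside a median of 0.06 over all genes. Again 0 of 37 members passed (lowest limma adjusted p 0.770), beside 0% of all genes. Ttc3 was the 1 member with an unadjusted p under 0.05 (difference 0.70, limma SE 0.27, adjusted p = 0.770), where 4.48% of all genes were higher and 1.83% lower at that level. The 3 members with an unadjusted p under 0.05 in all 9 lymphomas no longer had one. Itsn1 differed by -1.0 (SE 0.46, limma adjusted p = 0.770), Cbr3 by -1.57 (SE 0.89, adjusted p = 0.780) and Hlcs by -1.56 (SE 0.67, adjusted p = 0.770), each nearer to 0 than with all lymphomas. Ets2 came to 0.06 (SE 0.70), against -1.45 (SE 0.97) with all lymphomas. Erg differed by 3.15 (SE 2.07) without them and 2.93 (SE 1.46) with them, with 2 double-transgenic tumours above 10 and the rest of that group between 4.66 and 6.16.

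**Figure D5:**
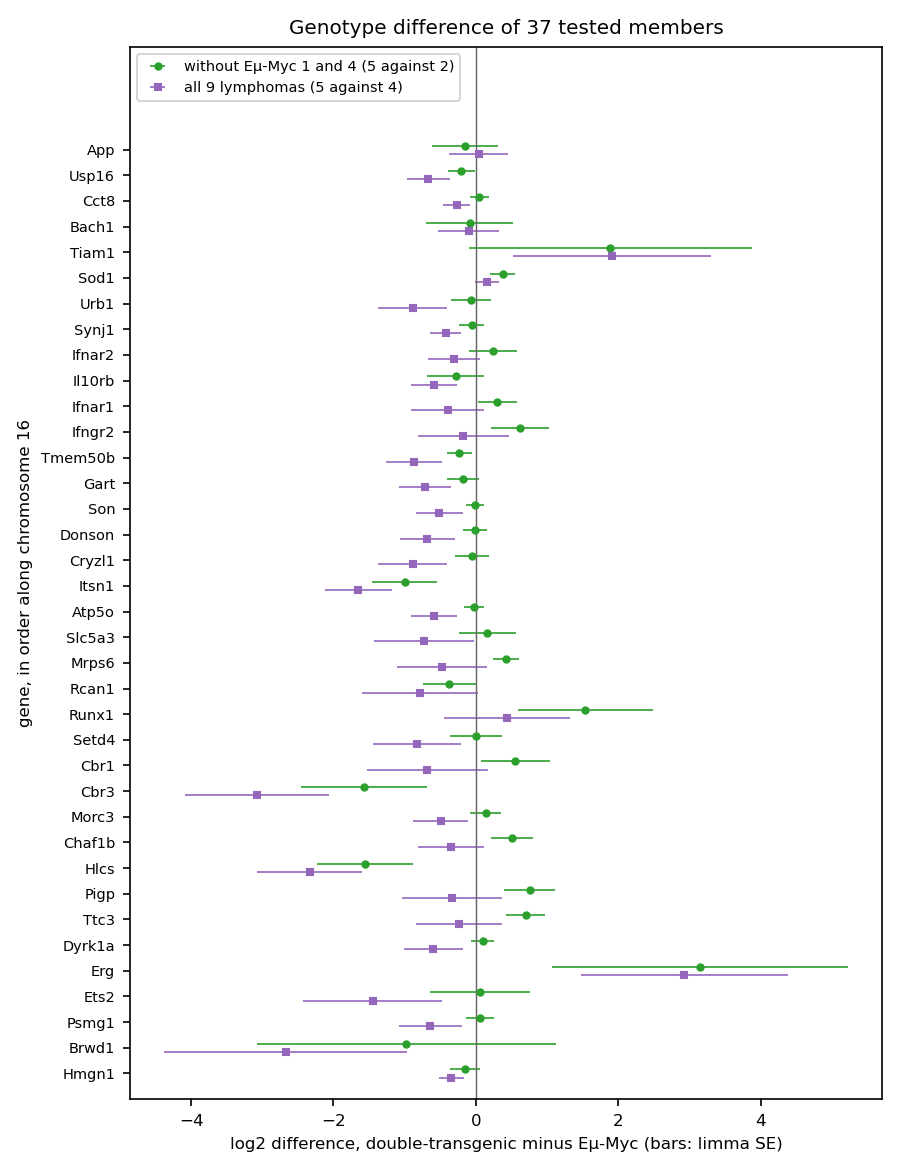
Log2 difference, double-transgenic minus Eμ-Myc (x axis, bars are limma standard errors), of the 37 tested members without Eμ-Myc replicates 1 and 4 (circles, 5 against 2 lymphomas) and with all 9 (squares, 5 against 4). The median moves to 2.78e-03 without the pair, against -0.59 with it.

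Over the 7 lymphomas other than Eμ-Myc replicates 1 and 4, the members differed among themselves. Their median SD was 0.42 on the log2 scale, against 0.33 over all tested genes. A range above 2 was found for 9 of 37 members and for 20.2% of all genes. Eμ-Myc replicate 4 lay above all 7 for 18 members, beside 11.7% of all genes, and above the median of 9 for 32 members, beside 45.8% of all genes. The 17 tested genes that lie between App and Hmgn1 but are not listed had a median of 1.10 in Eμ-Myc replicate 1, from -1.12 (Cyyr1) to 3.46 (Dnajc28), with B130034C11Rik (2.61), Vps26c (2.43), Paxbp1 (2.25) and Smim11 (2.21) next to the highest. In replicate 4 these 17 had a median of 0.41, with Dop1b (2.11), Ripply3 (1.87) and Adamts5 (1.44) highest and Cyyr1 (-0.65) lowest.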

How the data were processed

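RNA of 9 lymphomas was measured on 1 array each. Per the submitters' processing notes, the authors made the deposited intensity values with GCRMA (version not given in the sources used here). They ran from 1.56 to 123105, a linear scale, and log2 was taken without a pseudocount. The number of arrays limits the precision. Scanner files and scan dates were not analysed here.

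Of 45037 probe sets, 34945 had 1 gene, 932 several and 9160 none in the platform annotation, and 34741 were matched to the reference table (GRCm38.p6), used for names and gene order. A gene was tested if its probe set with the highest mean exceeded log2 4 (an intensity of 16) in at least 4 of 9 arrays. Groups came from the sample titles. The genotype test was limma (version 3.58.1, under R 4.3.3) with lmFit, eBayes, two-sided p and Benjamini-Hochberg adjustment, tested on simulated data. The 3 levels along chromosome 16, fitted by least absolute deviation, were chosen after values had been seen. Deviations, windows of 11 genes and counts at 0.5 carry no test, and the partner and marker lists are given by counts and medians. Named genes were all members, the ends of each partner list, the 5 highest and 3 lowest unlisted neighbours and the 3 genes beside each end of the run, and Cbfb and Mx1 were added after their values were seen. The members, lists and thresholds were chosen with earlier results of these data known. Alternatives were other filters, probe set choices, normalisations, a pseudocount of 16, array weights, a robust prior with a trend, a replicate block, another baseline, other window lengths and leaving out each array.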

Additional observations from a re-analysis of the deposited data

Results flagged for a closer look

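Of 76 groups of values checked, 5 had a single lymphoma far from the rest of its group by Dixon's criterion. Chance flags about 1 in 20 groups, and the count lies near that share. Mrps6 read 13.50 in Eμ-Myc replicate 1, and its group otherwise spanned 10.23 to 10.66. That Mrps6 value is among those the list was drawn up on. Erg read 3.90 in Eμ-Myc replicate 2, and its group otherwise spanned 4.70 to 4.79, near the intensity of 16 used as the filter. Runx1 read 12.80 in double-transgenic replicate 2, and its group otherwise spanned 9.30 to 10.28. Tmem50b read 9.28 in the same lymphoma, against 8.76 to 8.88. App read 11.98 in double-transgenic replicate 5, against 11.06 to 11.31.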

How the results depend on the processing

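The members' median deviation in Eμ-Myc replicate 1 ran from 1.96 to 2.21 over 8 alternatives, with 31 or 32 members at 0.5 or more. It was 2.13 with a log2 filter of 6 and 2.21 with the baseline from the 7 other arrays, and between 1.99 and 2.12 with arrays left out in turn. In Eμ-Myc replicate 4 it ran from 0.30 to 0.53, being 0.48 with the filter of 6 and 0.53 with the baseline from the 7 other arrays, and between 0.34 and 0.47 with arrays left out. The count of members at 0.5 or more in replicate 4, 16 of 37 as reported, ran from 10 with median centring to 21 with the baseline from the 7 other arrays. It was 11 with the mean of all probe sets of a gene, and between 13 and 17 with arrays left out. Windows of 7 and 21 genes called 46 to 54 windows in Eμ-Myc replicate 1 and 179 to 185 in replicate 4.

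No member passed the genotype test under any alternative run, and 0 genes of the whole table did so except with Eμ-Myc replicate 3 left out (8 genes) or replicate 4 left out (1 gene), so the range was 0 to 8. The members' median genotype difference ran from -0.79 to -0.12 with arrays left out, -0.12 being without Eμ-Myc replicate 1. Without replicates 1 and 4 it ran from -0.025 to 0.10, where leaving out a further Eμ-Myc array leaves a lone sample that is assumed to vary like the others. The genotype difference of Ttc3 turned positive with array weights (0.032) and ranged from -0.70 to 0.47 with arrays left out, positive without Eμ-Myc replicate 1. That of Runx1 ranged from -0.19 to 1.12, negative without Eμ-Myc replicate 2 (-0.03) or double-transgenic replicate 2 (-0.19). The cause was not tested. With the replicate number as a block, the members' median difference was -0.51 and no member passed; double-transgenic replicate 5 has no partner number and drops out of that fit. The labels do not state that the numbers pair the samples. Correlations of same-numbered arrays ran from -0.09 to 0.20, and 2 of 4 arrays correlated best with their own number. So few pairs cannot decide whether the samples were paired.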

Other observations

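Some chromosome 16 genes under the filter, and so outside the tests, stood out in Eμ-Myc replicate 1 or 4. They were picked after their values were seen. Grik1, a glutamate receptor gene between Bach1 and Tiam1, read 9.96 in Eμ-Myc replicate 1, against 2.93 in Eμ-Myc replicate 4, and the 7 remaining lymphomas spanned 2.84 to 2.99. Trp63, a relative of the p53 gene that lies outside the raised stretch, read 8.69, against 2.35 in replicate 4 and 2.31 to 4.71 in the others. Mir155hg, the host transcript of an oncogenic microRNA of B cells, read 5.43, against 2.49 and 2.40 to 2.81. Cd80, a costimulatory ligand, read 5.40, against 3.50 and 3.16 to 3.56. Dnase1 read 15.07 in Eμ-Myc replicate 4, against 2.34 in replicate 1 and 2.27 to 5.39 in the others.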
